A study of Mus musculus with 6 samples.

Results

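Claudin-1 and 8 other proteins of the tight junction were followed in MCT cells, a proximal tubular epithelial line from the renal cortex of SJL mice, after exposure to the cytokine TWEAK. The 9 genes, Cldn1, Cldn2, Cldn3, Cldn4, Cldn7, Cldn12, Ocln, Tjp1 and F11r, were taken by the gene symbol in the deposited array table, out of 22061 named genes, and each had 1 probe set, so all 9 had a value on every array. The tested cells received 100 ng/mL TWEAK for 6 h and the control cells received vehicle. Both were subconfluent and had been kept overnight without serum, and both came from 1 cell line without any genetic change named in the labels. RNA from 3 TWEAK and 3 control samples, described in the series as independent experiments, was hybridised to Affymetrix whole-transcript arrays. Every value below is the authors' RMA value, a background-corrected and between-array normalised expression level on the log2 scale. A difference is the TWEAK mean minus the control mean. The question was how the transcripts of junction proteins stood in TWEAK-treated tubular cells.

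Tight junctions seal the space between epithelial cells. Claudins are the membrane proteins that form the strands and set which ions pass between cells. Occludin and JAM-A accompany them in the membrane, and ZO scaffolds tie them to actin. The proximal tubule has a leaky junction rich in the cation and water pore claudin-2, whereas claudin-1 is a sealing claudin best known from skin barrier function and, in the kidney, from the parietal cells of Bowman's capsule. TWEAK is a TNF family ligand that acts through the receptor Fn14 and activates canonical and noncanonical NF-kB signalling.

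Because the 9 genes were selected with their TWEAK response known, their differences between the groups are described here, and no test is used to support them. Cldn1 was higher on every TWEAK array. Tjp1, which encodes ZO-1, and F11r, which encodes JAM-A, were lower on every TWEAK array. Cldn12 was lower on average, with overlapping groups, and the other 5 genes, Cldn2, Cldn3, Cldn4, Cldn7 and Ocln, differed by less than 0.25 on the log2 scale, as did 77.2% of all named genes. Thus 1 of the 9 genes was higher and 2 were lower without overlap between the groups. Across all named genes 12.9% were higher and 13.5% were lower without overlap, 26.4% in all. The median difference was 0.03 for the 9 genes and 0.03 for all named genes.

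The promoter windows of the 3 genes with separated groups are shown first, to set what stands at their annotated starts beside the expression values. Sequences are from RefSeq (GRCm38.p6, the C57BL/6J genome, whereas the cells are of SJL origin), and all 9 genes matched an entry. Each run covers the 250 bases before the start site, 5′ to 3′ on the gene's strand. The Cldn1 window is chr16:26371840-26372089 (minus strand), the Tjp1 window chr7:65371245-65371494 (minus strand, a start inside the annotated span of the gene) and the F11r window chr1:171437311-171437560 (plus strand). Capitals mark matches, on either strand, to a loose pattern for NF-kB sites (GGG, then 5 bases of any kind, then CC) and to TGANTCA, the AP-1 pattern.
Cldn1: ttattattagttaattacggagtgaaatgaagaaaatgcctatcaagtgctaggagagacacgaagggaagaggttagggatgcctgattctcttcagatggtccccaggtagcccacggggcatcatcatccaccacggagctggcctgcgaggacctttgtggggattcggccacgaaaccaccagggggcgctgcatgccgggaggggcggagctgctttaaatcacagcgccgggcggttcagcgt
Tjp1: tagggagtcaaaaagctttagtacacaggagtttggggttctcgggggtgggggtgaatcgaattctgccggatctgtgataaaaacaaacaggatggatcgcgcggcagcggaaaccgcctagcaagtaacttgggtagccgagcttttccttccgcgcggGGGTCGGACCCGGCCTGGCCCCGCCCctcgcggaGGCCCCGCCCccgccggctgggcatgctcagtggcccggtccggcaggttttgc
F11r: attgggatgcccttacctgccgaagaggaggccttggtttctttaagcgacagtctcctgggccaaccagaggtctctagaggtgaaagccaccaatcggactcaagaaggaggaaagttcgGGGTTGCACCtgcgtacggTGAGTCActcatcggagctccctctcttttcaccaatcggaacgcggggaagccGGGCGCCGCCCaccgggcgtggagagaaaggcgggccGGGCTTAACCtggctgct

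The Cldn1 window held no match to either pattern. The loose NF-kB pattern was present in the windows of 5 of the 9 genes, Cldn7, Cldn12, Ocln, Tjp1 and F11r, some of which have more than 1 start site. By single window it was in 9 of the 13 windows of the 9 genes, and in 45.8% of 32851 RefSeq promoter windows of the same length. A stricter NF-kB pattern (GGGA, 1 base of any kind, then TTTCC), every match of which also matches the loose one, was in 0 of the 13 windows and in 0.356% of all windows. The AP-1 pattern was found in 2 of the 9 genes, with 2 of the 13 windows, and in 6.75% of all windows. F11r had 1 AP-1 match, from base -109 to base -103 relative to the start site, and Cldn4 had 2. These are matches of letters within 250 bases, and sites farther away were not searched.

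Cldn1 encodes the sealing claudin and was the member with the greatest difference. Its log2 values were 9.06, 8.38 and 8.54 on TWEAK arrays 1, 2 and 3, against 6.40, 6.38 and 6.80 on control arrays 1, 2 and 3. The lowest TWEAK array stood 1.58 above the highest control array, so the groups lay far apart. The mean was 8.66 ± 0.36 in TWEAK cells and 6.53 ± 0.23 in control cells (SD, n = 3 each), a difference of 2.13 (SE 0.19), or 4.38-fold. Only 3 of the 22061 named genes had a greater positive difference. In the authors' deposited table the ratio of unlogged means for Cldn1 is 4.43. The spread within TWEAK cells came mainly from array 1, the highest, and in control cells from array 3. With each array left out in turn the Cldn1 difference stayed between 1.93, without TWEAK 1, and 2.27, without TWEAK 2.

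**Figure D1:**
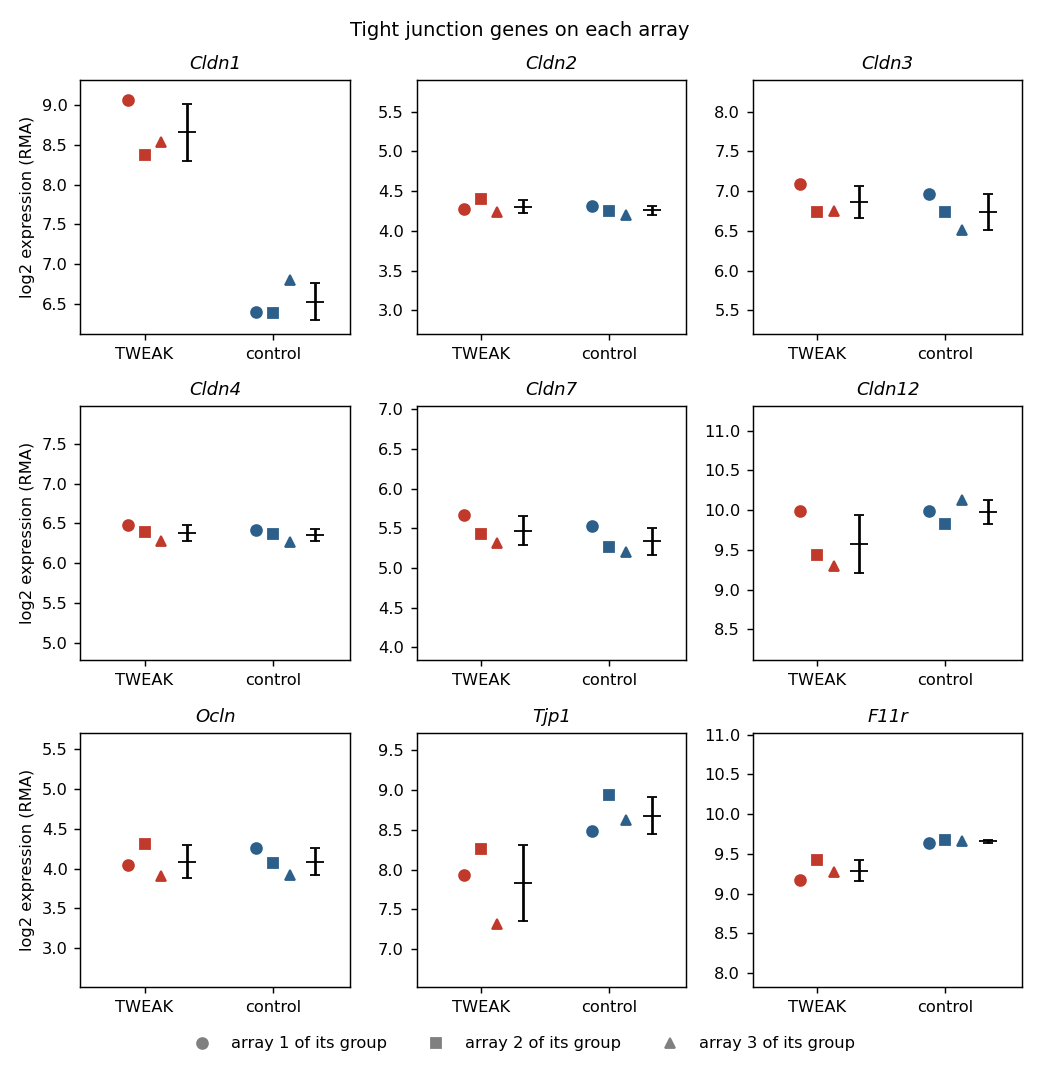
Log2 expression (RMA) of the 9 tight junction genes on each of the 3 TWEAK arrays (red) and 3 control arrays (blue), with the mean and SD of each group in black; every panel spans the same number of log2 units. Cldn1 stands 1.58 or more above all control arrays, Tjp1 and F11r lie below them on every TWEAK array, and the other 6 genes overlap.

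The scaffold gene Tjp1 had the greatest negative difference of the 9 genes. ZO-1 binds claudins, occludin and JAM-A through separate domains and links them to actin filaments. Tjp1 values were 7.93, 8.26 and 7.31 on the TWEAK arrays, against 8.48, 8.93 and 8.62 on the control arrays. The groups did not overlap, with a gap of 0.23 between TWEAK 2 and control 1. The mean was 7.83 ± 0.48 in TWEAK cells and 8.68 ± 0.23 in control cells (SD, n = 3 each), a difference of -0.84 (SE 0.23), which is 1.80-fold lower. TWEAK 3 was the lowest array, and the Tjp1 difference was -0.58 without it and -1.06 without TWEAK 2. Of all named genes 1.21% had a lower difference than Tjp1. The authors' deposited table gives a ratio of 0.572 for Tjp1.

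F11r encodes JAM-A, an immunoglobulin-like adhesion protein of the junction that also binds a leukocyte integrin. It was at 9.17, 9.43 and 9.27 on the TWEAK arrays and at 9.64, 9.68 and 9.66 on the control arrays. The control arrays were nearly identical for F11r, with an SD of 0.02, against 0.13 in TWEAK cells, and the gap between the groups was 0.21. The means of 9.29 in TWEAK cells and 9.66 in control cells differed by -0.37 (SE 0.09), which is 1.29-fold lower. Leaving out single arrays kept the F11r difference between -0.44 and -0.31. Small as this difference is, it exceeded the spread within each group, and 10.3% of all named genes had a lower one.

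Cldn12 encodes a claudin that, in mice, takes part with claudin-2 in calcium passage between proximal tubule cells. Its values were 9.99, 9.44 and 9.29 on the TWEAK arrays, against 9.98, 9.83 and 10.13 on the control arrays. TWEAK 1 lay among the control arrays while TWEAK 2 and TWEAK 3 lay below all of them. The mean was 9.57 ± 0.37 in TWEAK cells and 9.98 ± 0.15 in control cells (SD, n = 3 each), a difference of -0.40 (SE 0.18). The Cldn12 difference was -0.61 without TWEAK 1 and -0.26 without TWEAK 3, so its size depended on which TWEAK arrays were included. Of all named genes 9.22% had a lower difference than Cldn12.

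Cldn3, Cldn4 and Cldn7 encode claudins that in the kidney belong mainly to the distal nephron and collecting duct, and Cldn3 and Cldn4 are neighbours in the genome. Cldn3 was at 7.10, 6.74 and 6.75 on the TWEAK arrays, against 6.96, 6.74 and 6.51 on the control arrays. Cldn4 was at 6.48, 6.39 and 6.28 on the TWEAK arrays, against 6.42, 6.37 and 6.27 on the control arrays. In both genes the groups overlapped. Cldn7 was at 5.67, 5.43 and 5.32 on the TWEAK arrays and at 5.53, 5.27 and 5.21 on the control arrays. The differences were 0.13 (SE 0.14) for Cldn3, 0.03 (SE 0.09) for Cldn4 and 0.14 (SE 0.12) for Cldn7, none beyond the spread between arrays. With single arrays left out they lay between 0.01 and 0.24 for Cldn3, between -0.02 and 0.08 for Cldn4 and between 0.04 and 0.23 for Cldn7.

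Cldn2, the pore-forming claudin of the proximal tubule, was at 4.28, 4.40 and 4.24 on the TWEAK arrays, against 4.32, 4.25 and 4.21 on the control arrays. Ocln, which encodes occludin, was at 4.04, 4.31 and 3.91 on the TWEAK arrays and at 4.26, 4.08 and 3.92 on the control arrays. Both genes lay below the lower quartile of all probe sets (4.65 to 4.73) on all 6 arrays. Their differences of 0.05 (SE 0.08) for Cldn2 and 0.00 (SE 0.13) for Ocln thus come from dim probe sets, where a change could go unseen, since no measure of signal over background was used here. Cldn2 kept its sign in 11 of 12 other settings and Ocln in 8 of 12.

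**Figure D2:**
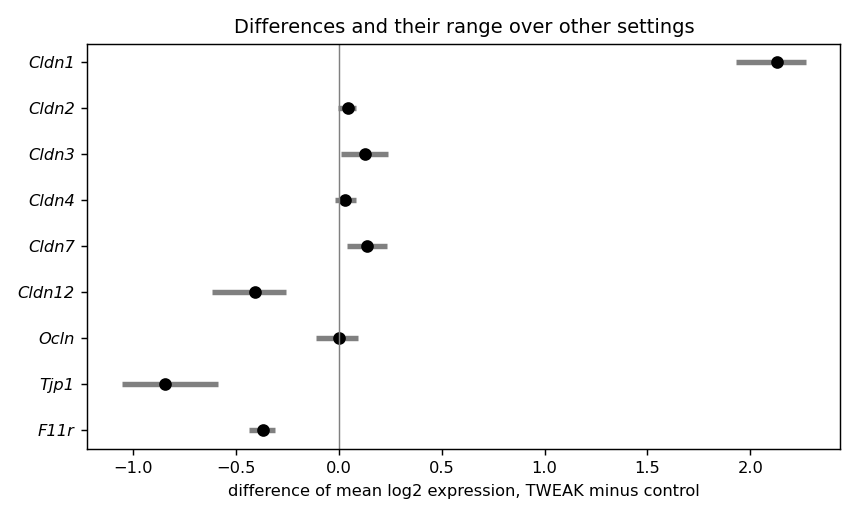
Difference of mean log2 expression (TWEAK minus control) for each of the 9 genes: points are the values reported in the text and grey bars run from the lowest to the highest value over up to 13 other settings, which include leaving out each array. The bar of Cldn1 runs from 1.93 to 2.27, those of Tjp1, F11r and Cldn12 stay below 0, and those of Cldn2, Cldn4 and Ocln cross 0.

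Arrays of the 2 groups that carry the same number can also be set side by side, although the labels do not say that a number marks a shared experiment. For Cldn1 the TWEAK array exceeded the control array of its number by 2.66, 2.00 and 1.74 on the log2 scale for numbers 1, 2 and 3. For Tjp1 these differences were -0.55, -0.68 and -1.31, and for F11r they were -0.47, -0.25 and -0.39. All 3 genes kept 1 direction, which follows from their groups not overlapping and adds nothing to it. Cldn1 was furthest apart at number 1 and Tjp1 at number 3. For Cldn12 the differences were 0.01, -0.39 and -0.83, and thus close to 0 at number 1. Cldn7 differed by 0.14, 0.16 and 0.11, and Cldn4 by 0.06, 0.02 and 0.00, each above 0 although the groups overlapped in both genes. Signs were mixed in Cldn3 (0.13, -0.001 and 0.24), Cldn2 (-0.04, 0.15 and 0.03) and Ocln (-0.22, 0.24 and -0.01). In Cldn3, Cldn4 and Cldn7 alike, the array numbered 1 was the highest in TWEAK and in control cells. The same held for 12 of 24 claudins in all and for 22.0% of all named genes.

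In limma's fit over all named genes, with Benjamini-Hochberg adjustment over all of them and a threshold of 0.05, 1 of the 9 genes passed, Cldn1, where 3.00% of all named genes passed, 1.28% of them higher and 1.71% lower. Nothing is read from that count, since the genes were chosen on the same comparison. Without TWEAK 1 limma called 0 of the 9 genes, and Cldn1, Tjp1, F11r and Cldn12 kept the direction of their differences. The calls over all genes, 283 higher and 378 lower, numbered 1 and 0 in that case. An unadjusted p under 0.05 was then reached by 1497 genes with higher and 2470 with lower TWEAK values.

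The genes whose profile over the 6 arrays was nearest to that of Cldn1, by root mean square distance after each gene was centred on its own mean, were Spib, Nfkbie, Ccrl2, Traf1, Stap2 and Sprr1a. The distance from Cldn1 was 0.29 for the transcription factor gene Spib, 0.34 for Nfkbie, which encodes an inhibitor of NF-kB, and 0.36 for the chemoattractant receptor gene Ccrl2. It was 0.38 for Traf1, an adaptor of TNF receptors, 0.38 for the signalling adaptor gene Stap2 and 0.39 for Sprr1a, a gene of the cornified envelope with close copies. All 6 share with Cldn1 the gap between the TWEAK and the control arrays. The choice by nearness to the Cldn1 profile favours such a gap, so it is no separate result. Among the TWEAK arrays Cldn1 was highest on array 1, as were Spib and Ccrl2, whereas Nfkbie, Traf1, Stap2 and Sprr1a were highest on array 3. The difference was 2.13 for Cldn1, against 2.55 for Traf1 and 1.65 to 1.84 for the other 5.

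**Figure D3:**
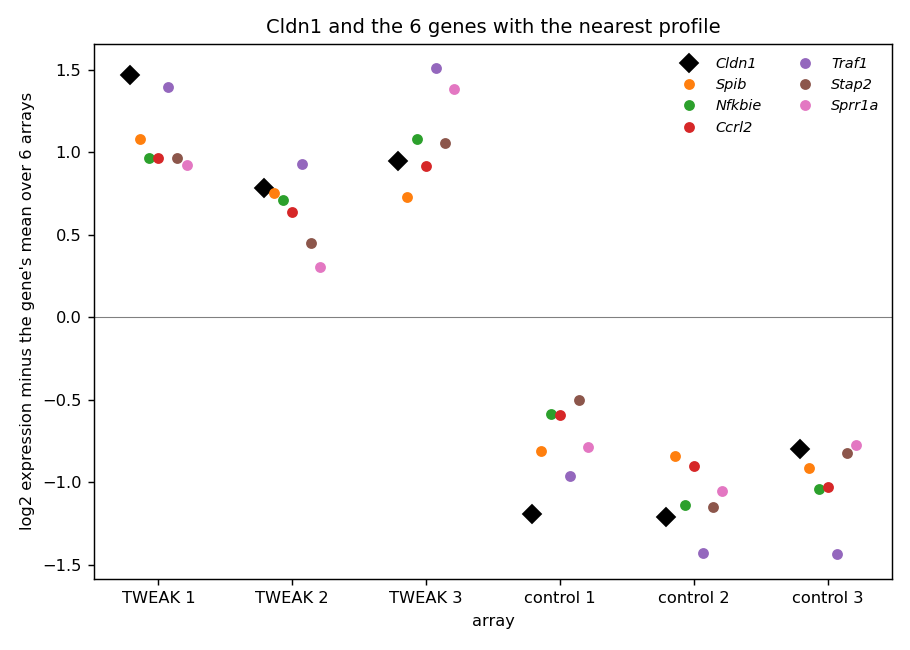
Log2 expression on each array minus the gene's own mean over the 6 arrays, for Cldn1 (black diamonds) and the 6 genes nearest to it in profile (coloured circles). All 7 genes lie above 0 on the TWEAK arrays and below 0 on the control arrays, which the choice by profile favours. Cldn1 has its highest value on TWEAK 1.

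Set against the 18 other claudins, Cldn1 stood alone in size: the 23 claudins other than Cldn1, members included, differed by between -0.40 and 0.22. None of the 18 passed in limma, and 0 had an unadjusted p under 0.05, with a median difference of 0.06 against 0.03 for all named genes. The smallest p belonged to Cldn5, the endothelial claudin, at 6.25 ± 0.14 in TWEAK cells and 6.03 ± 0.25 in control cells (SD, n = 3 each; limma's Benjamini-Hochberg adjusted p = 0.421). Cldn23 and Cldn19 followed with differences of 0.15 and 0.13. Cldn10, which forms anion pores in the proximal tubule, was at 4.58 ± 0.04 in TWEAK cells and 4.51 ± 0.03 in control cells (SD, n = 3 each). This difference, 0.07 with an SE of 0.08, was not past the threshold in limma (adjusted p = 0.657). Of the 18, Cldn14 alone lay above the median of all probe sets on every array, and 4 lay below the lower quartile. In dim probe sets a change could go unseen, as for Cldn2 and Ocln.

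**Figure D4:**
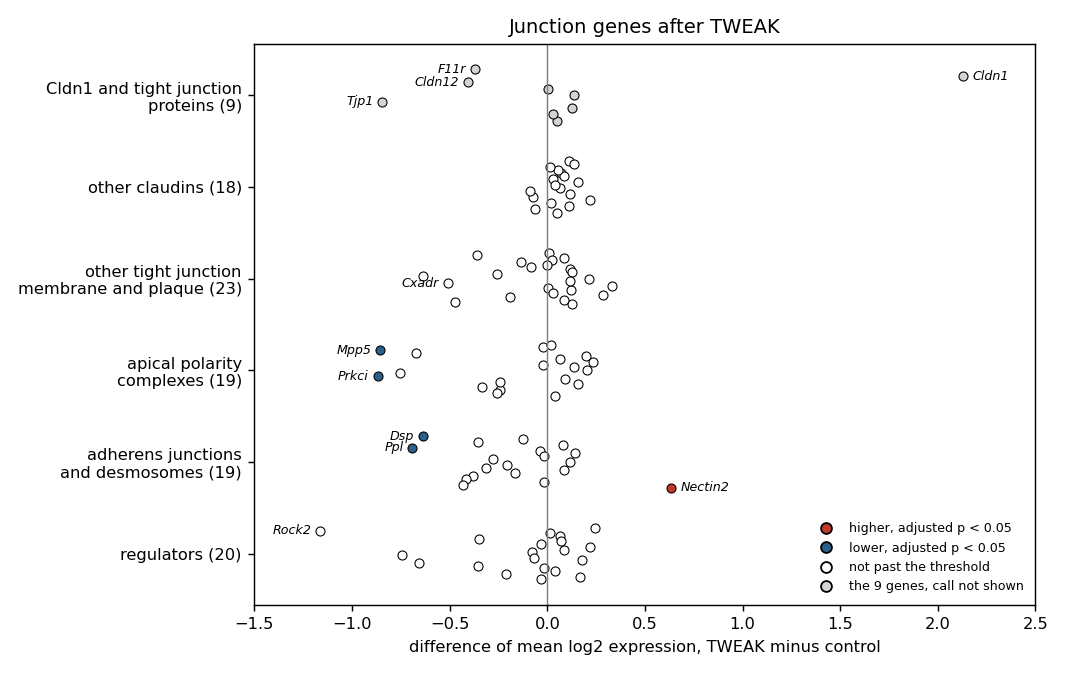
Difference of mean log2 expression (TWEAK minus control, horizontal axis) of the 9 tight junction genes and of 5 further junction lists, 1 point per gene, with the number of genes in brackets; red and blue mark genes past the threshold in limma, white those not past it and grey the 9 genes, whose calls are not shown. Cldn1 at 2.13 lies alone on the right, and the other 23 claudins lie between -0.40 and 0.22.

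The partners of these genes in the junction were read from 5 lists grouped by function, with 99 genes in all. The other claudins are among these lists. All of them, like the marker lists below, were chosen with earlier results of these data known. Their calls, p-values and shares describe the lists and are no independent test. Nothing is read from setting their counts beside those of all named genes. Of the 99 genes 1 rose and 4 fell in limma, with a Benjamini-Hochberg adjusted p under 0.05, which is 5 of 99 against 3.00% of all named genes. The calls were sensitive to single arrays, and after cyclic loess those of Prkci, Mpp5, Dsp and Ppl were lost at adjusted p of 0.0517 to 0.0615 in limma.

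None of 23 other membrane and plaque proteins of the tight junction passed in limma. An unadjusted p under 0.05 was reached by 2 with higher and 5 with lower TWEAK values, against 21.3% of all named genes in either direction (median 0.03, and 0.03 for all named genes). The receptor gene Cxadr differed by -0.51 (SE 0.11), just short of the threshold at an adjusted p of 0.0506 in limma, with 0.00800 to 0.177 over the alternatives. The scaffold gene Magi3 differed by -0.64 and did not pass (adjusted p = 0.103 in limma). Its difference was -0.41 without control 3, and it passed without control 1 and with array weights (adjusted p = 0.0283 and 0.0306). Tjap1 (0.33), the cingulin gene Cgn (0.12), the tricellulin gene Marveld2 (0.13) and Jam3, a relative of F11r (-0.08), did not pass.

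Apical polarity complexes, which position the tight junction, had 2 of 19 members lower and 0 higher in limma. Of all named genes 1.71% were called lower and 1.28% higher. In this list 1 had higher and 6 had lower TWEAK values at an unadjusted p under 0.05, which 21.3% of all named genes reached. The median difference was -0.02, against 0.03 for all named genes. Prkci, the atypical protein kinase C iota, fell by 0.87 on the log2 scale (SE 0.16; limma's Benjamini-Hochberg adjusted p = 0.0396), and Mpp5, which encodes the scaffold PALS1, fell by 0.86 (SE 0.16, adjusted p = 0.0377). Both calls held without control 1 and were lost without any 1 of the other arrays, with adjusted p of 0.0589 to 0.136 in limma. On the TWEAK arrays Mpp5 was at 4.54, 4.66 and 4.48, near the lower quartile of all probe sets (4.65 to 4.73). The size of the Mpp5 difference thus rests partly on dim values. Lin7c, which encodes a partner of PALS1, differed by -0.75 and did not pass (adjusted p = 0.0601, and 0.0136 to 0.170 over the alternatives).

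Adherens junctions and desmosomes had 1 of 19 members higher and 2 lower in limma, against 1.28% and 1.71% of all named genes. At an unadjusted p under 0.05 in limma 1 was higher and 7 were lower, where the share of all named genes was 21.3%. The median difference was -0.16, against 0.03 for all named genes. The adhesion gene Nectin2 rose by 0.64 (SE 0.11; limma's Benjamini-Hochberg adjusted p = 0.0365). The desmosomal linker genes Dsp and Ppl fell by 0.64 (SE 0.10) and 0.69 (SE 0.12), with adjusted p of 0.0334 and 0.0367 in limma. A dimmer probe set of Dsp differed by 0.16, and the mean of both by -0.24, which did not pass (adjusted p = 0.163). Without TWEAK 1, TWEAK 3, control 2 or control 3 neither Nectin2, Dsp nor Ppl passed, and Dsp was also not past the threshold without TWEAK 2. Cdh1, the E-cadherin gene, differed by 0.12 and Ctnnb1, the beta-catenin gene, by -0.42, neither past the threshold (adjusted p = 0.496 and 0.121 in limma).

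None of 20 regulators of junction assembly or of junction gene transcription passed in limma. An unadjusted p under 0.05 was reached by 1 with higher and 4 with lower TWEAK values, where the share of all named genes was 21.3% (median -0.02, against 0.03 for all named genes). Wnk4, a kinase that can phosphorylate claudins, differed by -0.36 (adjusted p = 0.0536 in limma). The actomyosin kinase genes Rock2 and Rock1 differed by -1.16 and -0.74, with control 3 the highest array in each (adjusted p = 0.0619 and 0.135, and for Rock2 0.0199 to 0.176 over the alternatives). Without control 3 the differences were -0.83 for Rock2 and -0.40 for Rock1.

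The labelled cell type was set against marker genes. Of 10 proximal tubule markers 3 lay above the median of all probe sets (6.12 to 6.18) on every array, namely Lrp2, Slc5a2 and Aqp1, and of 5 general epithelial markers 3, namely Krt8, Krt18 and Krt19. Of 8 distal nephron and collecting duct markers Aqp2 did so, of 6 leukocyte markers Cd68, and of 5 endothelial and 5 fibroblast or pericyte markers none. The epithelial adhesion genes Cdh1 and Epcam lay below that median on every array. The linear values of the proximal tubule list summed to 1077 to 1130 on the TWEAK arrays and 1133 to 1265 on the control arrays, and those of the endothelial list to 173 to 186 on the TWEAK arrays and 158 to 169 on the control arrays. The lower sum of the proximal tubule list came from Lrp2, Cubn and Aqp1, while the other 7 of its 10 genes had positive differences (median of the list 0.09). For leukocytes the sums were 303 to 348 on the TWEAK arrays and 308 to 328 on the control arrays. With TWEAK arrays named first, the distal nephron and collecting duct list summed to 354 to 402 against 325 to 397. The general epithelial list summed to 2273 to 3241 against 2680 to 3091. The fibroblast and pericyte list summed to 133 to 147 against 122 to 135. Of the 39 markers 33 had positive and 6 had negative differences, where 12908 of all 22061 named genes had positive and 9153 negative differences. What part shifts in these sums have in the values of the 9 genes was not tested. None of the 39 markers passed limma's test over all genes, while 5 of them, 3 with higher and 2 with lower TWEAK values, had an unadjusted p under 0.05, as had 21.3% of all named genes. Brightness depends on the probes, so these positions show no absolute level. In RNA from whole cultures a change in the share of cells and a change in RNA per cell cannot be told apart.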

How the data were processed

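RNA of 6 samples of MCT cells was measured, 3 given TWEAK and 3 given vehicle, grouped and numbered by their titles. The values deposited by the authors are log2 expression levels of probe sets. Per the submitters' processing notes they came from RMA, run in Expression Console of Affymetrix. Versions and the build are not given in these sources. Since RMA equalises the distributions of the arrays, it hides a shift common to most transcripts. The workbook and the series value table held the same values (largest difference 1.8e-15). The authors' deposited ratio of TWEAK over control is quoted for some genes, and their deposited p-value per probe set, per the file headers, was not used.

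Of 28361 probe sets, 25465 carried 1 gene symbol, 2894 none and 2 several. Symbols were updated through RefSeq (GRCm38.p6), and the brightest probe set (mean of the 6 arrays) stood for a gene. All 22061 genes were fitted together in limma 3.58.1 (lmFit and eBayes, R 4.3.3) without a replicate block or a filter, with Benjamini-Hochberg adjustment and a threshold of 0.05. SE is the moderated standard error and a fold is 2 to the power of a difference. Figures were made with Python 3.11.15 and matplotlib 3.10.9. The labels describe independent experiments. A p-value sets a gene's difference against its spread between these arrays, moderated by that of all genes. The small number of arrays limits the precision. Across genes, which do not count as replicates, arrays correlated at 0.993 to 0.996 among TWEAK samples and 0.992 to 0.996 among control samples. The fit was also run on simulated data with planted changes. The simulated noise was independent between arrays and genes, so that run cannot show how single arrays affect the calls.

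The 9 genes and all lists were chosen with earlier results of these data known. Genes of the lists are named if they passed, if their p was among the 3 smallest of a list, or if they are Cldn10, Cgn, Marveld2, Cxadr, Jam3, Cdh1 or Ctnnb1. The 6 genes nearest to Cldn1 in profile are named as well, and Cldn14, Lrp2, Slc5a2, Aqp1, Cubn, Krt8, Krt18, Krt19, Aqp2, Cd68 and Epcam were chosen after their values were seen. A gene of the lists is not reported here and was left out of their counts. Alternatives tried were the replicate number as a block, trend and robust options of eBayes, a filter to genes above the median brightness, averaging a gene's probe sets, median centring of the arrays, cyclic loess, array quality weights, and each array left out in turn.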

Additional observations from a re-analysis of the deposited data

How the results depend on the processing

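The sign of the Cldn1 difference was the same in 13 of 13 alternatives, and its size lay between 1.93 and 2.27 on the log2 scale when single arrays were left out. Tjp1, F11r and Cldn12 also kept their sign in all 13, while Cldn4 did in 11 of 13. For these genes, each with 1 probe set, the replicate block, eBayes options, brightness filter and probe set averaging leave the difference unchanged by design. Leaving out single arrays cannot reverse the sign where the groups do not overlap, as in Cldn1, Tjp1 and F11r. Counts of calls moved much more than sizes, and the cause was not tested. Across all genes 283 were called higher and 378 lower, against 122 and 85 with a replicate block, 183 and 69 after cyclic loess and 1114 and 2109 with array quality weights. Lower calls were 643 with only brighter genes tested and 225 with arrays centred on their medians. Leaving out single arrays gave 1 to 464 higher and 0 to 1412 lower genes. Of the 9 tight junction genes 0 to 1 were called higher without single arrays. Array weights called 2 of the 9 lower, where they called 2109 of all 22061 named genes lower. Nothing is read from these counts, since the 9 genes were chosen on the same comparison.

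For the other tight junction membrane and plaque genes, higher calls numbered 0, and 1 with array weights. Lower calls were 1 among brighter genes, 3 with array weights and 0 to 2 without single arrays. The 2 lower polarity genes became 0 with the replicate block and after cyclic loess, 5 with array weights and 0 to 3 without single arrays. Among adherens junction and desmosome genes the 1 higher call became 0 with the replicate block and 0 to 1 without single arrays. The 2 lower calls became 1 with the replicate block and with the mean of all probe sets, 0 after cyclic loess, 6 with array weights and 0 to 3 without single arrays. Among regulators lower calls numbered 1 with trend and robust settings, 2 among brighter genes, 3 with array weights and 0 to 1 without single arrays. No alternative called any of the 18 other claudins, of which only 1 was fitted with the brightness filter.

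Same-numbered arrays did not all deviate together (correlations of 0.196, 0.359 and -0.0716 for numbers 1, 2 and 3 over all genes), so the numbers were not taken to pair the samples. Dim probe sets such as those of Cldn2 and Ocln limit what could be seen.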
